A study of Mus musculus with 24 samples.

Results

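Loss of Pcyt2 was compared with its rescue in mouse pancreatic ductal adenocarcinoma (PDAC) cells in which p53 had been restored. The comparison rests on 4 of the 24 RNA-seq libraries of the series and on the 14916 genes, of 55401 listed, whose counts passed edgeR's expression filter. KPsh cells are a PDAC cell line with a doxycycline-inducible hairpin against Trp53, so p53 is silenced on the drug and returns when it is withdrawn. All cells of this experiment were KPsh cells carrying a guide against Pcyt2 (sgPcyt2), grown in medium with serum on collagen-coated plates. The 4 groups of 2 libraries were sgPcyt2 cells kept off doxycycline for 6 days, sgPcyt2 cells with a guide-resistant Pcyt2 cDNA (called cDNA cells here) kept off doxycycline for 6 days, and the same sgPcyt2 cells and cDNA cells kept on doxycycline at 1 µg/ml for 6 days. The hairpin was therefore present in every group, and off-doxycycline values are those of cells in which Trp53 was released, not of cells that never carried a hairpin. Wherever off- and on-doxycycline libraries are compared, the drug itself and the state of p53 change together and cannot be told apart. The sources used here do not say whether the edited cells were 1 clone or a pool, nor whether the 2 libraries of a group came from separate cultures, so the p-values measure the spread between libraries, which may be technical.

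PCYT2 makes CDP-ethanolamine, the activated headgroup donor from which the last enzyme of the Kennedy pathway builds phosphatidylethanolamine, a main phospholipid of cell membranes. Ethanolamine kinases feed this branch, and phosphatidylserine decarboxylase in mitochondria gives another route to the same lipid. A parallel branch that starts with choline kinases makes phosphatidylcholine. p53 is a transcription factor that halts the cell cycle and changes metabolism when it is active, and it is silenced or mutated in most pancreatic carcinomas.

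Library totals lay between 13801514.5 and 17127760.5 counts, and the 2 libraries of each group differed by more than sampling noise (chi-square per degree of freedom 2.08 to 5.88). Values below are CPM, counts scaled to a common library total with TMM factors, and log2 changes are sgPcyt2 over cDNA with the standard error of the fit. Adjusted p-values are those of edgeR's quasi-likelihood test over all 14916 genes, with the spread shared by all 8 libraries, and calls were made where they were under 0.05. The first principal component held 83.8% of the variance and separated the off-doxycycline from the on-doxycycline libraries. Of the epithelial markers, Krt8 reached 4899.7 CPM and Krt19 reached 3463 CPM. Off doxycycline the 12 markers of ductal and carcinoma epithelium summed to 11304 to 12004 CPM in sgPcyt2 cells, against 12346 to 12408 CPM in cDNA cells. Of these 12, 3 stayed under 1 CPM in all 8 libraries. Markers of other cell types were low in all 8 libraries, with 13 of 14 fibroblast, 16 of 20 immune, 8 of 12 endothelial and 19 of 20 acinar and endocrine markers under 1 CPM. Dcn, Col3a1, Cd3e, Kdr and Ptf1a had no counts at all. The exceptions included Pdx1, which carcinoma cells can also express, with 49.8 CPM at most, and Cd14 with 30.1 CPM at most.

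Pcyt2, on mm10 chr11:120610087-120617936 (minus strand), had 21.3 and 17.7 CPM in sgPcyt2 cells, against 2202 and 2193 CPM in cDNA cells, a log2 change of -6.81 ± 0.058 (adjusted p = 5.02e-53). On doxycycline it had 28.6 and 28.5 CPM in sgPcyt2 cells, against 2636 and 2588 CPM in cDNA cells. Pcyt2 RNA was thus low in the libraries labelled with the guide alone and high in those labelled with the cDNA. PCYT2 protein was not measured in these libraries. Reads of the edited gene and of the cDNA could not be told apart. In unedited KPsh cells of the series, which were counted and scaled in a separate table, Pcyt2 averaged 86.3 ± 3.46 CPM off doxycycline and 109 ± 4.51 CPM on it (SD, n = 3 each). The cDNA cells therefore carried far more Pcyt2 RNA than the parental line. What follows sets edited cells with low Pcyt2 RNA beside a high level of that RNA, not beside its native level.

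Trp53, on mm10 chr11:69580359-69591872 (plus strand), had 42.1 and 41.7 CPM in sgPcyt2 cells, against 97.2 and 86.8 CPM in cDNA cells off doxycycline, and fell by 1.13 ± 0.066 on the log2 scale (adjusted p = 5.93e-19). On doxycycline the groups overlapped, with 22.7 and 19.2 CPM in sgPcyt2 cells and 19.3 and 20.2 CPM in cDNA cells (log2 change 0.081, adjusted p = 0.636). Both arms thus had more Trp53 RNA off the drug than on it, but sgPcyt2 cells gained less. The difference between the off and on effects was -1.21 ± 0.12 on the log2 scale (adjusted p = 9.66e-12). Unedited KPsh cells averaged 258 ± 5.85 CPM of Trp53 after 10 days off doxycycline and 21.1 ± 0.721 CPM on it (SD, n = 3 each). Every result below was measured beside this difference in Trp53 RNA, and the part of Trp53 in those results was not tested.

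**Figure D1:**
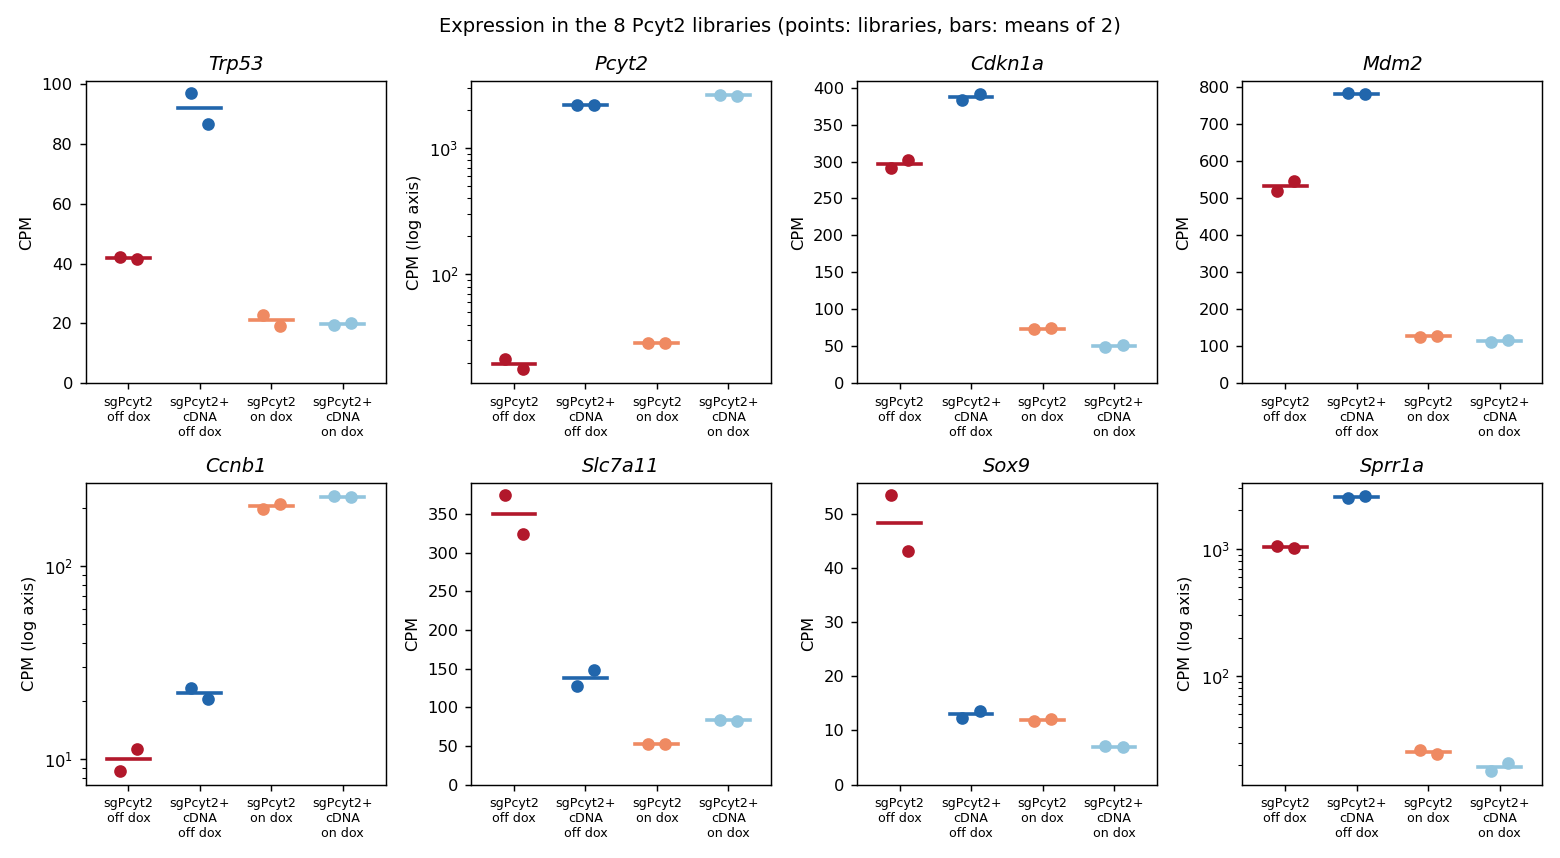
CPM of 8 genes in each of the 8 libraries, with sgPcyt2 and then sgPcyt2+cDNA cells off doxycycline at the left and on doxycycline at the right; points are libraries, bars are means of 2, and the axes of Pcyt2, Ccnb1 and Sprr1a are logarithmic. Trp53 stood at 42.1 and 41.7 CPM in sgPcyt2 cells and 97.2 and 86.8 CPM in cDNA cells off doxycycline, and the groups do not overlap off doxycycline for any of the 8 genes.

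Off doxycycline 4944 of 14916 genes (33.1%) were called, 2431 of them higher (16.3%) and 2513 lower (16.8%) in sgPcyt2 cells. Most of these changes were small. At least a 2-fold change was found for 660 genes (4.42%), 418 of them higher (2.8%) and 242 lower (1.62%). By DESeq2 the number called was 3116, of which 3102 were also called by edgeR. Of the 4944 called genes 4935 had no overlap between sgPcyt2 and cDNA libraries off doxycycline. Most genes named from lists or as extremes were picked partly on this, so non-overlap adds nothing to a call. Counts of list members off doxycycline are read against the shares of 16.3% higher and 16.8% lower, and counts on doxycycline against 8.4% higher and 10% lower, the shares over all genes there.

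The genes of mitosis and the G2/M transition were lower almost throughout. Of 54 tested, 50 were lower and none was higher in sgPcyt2 cells, and their median log2 change was -0.67, against 0.0052 over all genes tested. The 4 members that did not pass were Cdc25b, Cdc25c, Smc2 and Smc4. Ccnb1, the cyclin that drives entry into mitosis, had 8.67 and 11.3 CPM in sgPcyt2 cells, against 23.3 and 20.4 CPM in cDNA cells, and fell by 1.13 ± 0.10 on the log2 scale (adjusted p = 2.36e-12). Hmmr, a microtubule-binding protein of the spindle, had 12.9 and 13.4 CPM in sgPcyt2 cells, against 28.6 and 24.4 CPM in cDNA cells, and fell by 1.01 ± 0.093 on the log2 scale (adjusted p = 2.01e-12). Ndc80, which couples kinetochores to microtubules, had 3.67 and 3.81 CPM in sgPcyt2 cells, against 6.6 and 8.59 CPM in cDNA cells, and fell by 1.03 ± 0.17 on the log2 scale (adjusted p = 3.39e-06). In each of these genes both sgPcyt2 libraries lay below both cDNA libraries, as their choice required, at levels that were already low. These are bulk samples, in which fewer cells in division and less RNA per dividing cell cannot be told apart. On doxycycline they had many more counts, and Ccnb1 stood at 199.6 and 210.1 CPM in sgPcyt2 cells and 231 and 229 CPM in cDNA cells. Birc5, which encodes survivin, a subunit of the chromosomal passenger complex, had 8.6 and 12.4 CPM in sgPcyt2 cells, against 23 and 19.4 CPM in cDNA cells, and fell by 1.01 ± 0.11 on the log2 scale (adjusted p = 3.46e-09). The cyclin-dependent kinase of mitosis, Cdk1, had 23.1 and 25.4 CPM in sgPcyt2 cells, against 43 and 35.9 CPM in cDNA cells, and fell by 0.70 ± 0.075 on the log2 scale (adjusted p = 3.06e-10). Top2a, the topoisomerase that disentangles replicated DNA, had 60.9 and 68.9 CPM in sgPcyt2 cells, against 107 and 95.1 CPM in cDNA cells, and fell by 0.64 ± 0.056 on the log2 scale (adjusted p = 2.79e-12). Again the groups did not overlap, as in nearly all called genes. Cdc20, an activator of the anaphase-promoting complex, had 14.7 and 16.8 CPM in sgPcyt2 cells, against 25.3 and 22.7 CPM in cDNA cells, and fell by 0.61 ± 0.089 on the log2 scale (adjusted p = 2.67e-07). These last 3 genes and Mki67, the proliferation antigen with 40.5 and 44.4 CPM in sgPcyt2 cells, against 76.4 and 62.9 CPM in cDNA cells, were chosen after their values were seen. Mki67 fell by 0.71 ± 0.11 on the log2 scale (adjusted p = 0.000678), and its call was lost without sgPcyt2 library 1 (adjusted p = 0.0737). On doxycycline 10 of the 54 genes were lower and none was higher, with a median of -0.063. The effect differed between the off and on libraries for 44 of them, each with the lower effect off doxycycline.

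Promoters of genes expressed in G2/M often carry a cell cycle genes homology region (CHR), the letters TTTGAA, beside CCAAT boxes bound by the factor NF-Y. The stretches below are shown because nearly all genes of this list were lower; they run from 220 bases before to 20 after the gene start, 5′ to 3′ on the gene's strand, from RefSeq on build GRCm38.p6, with each CHR and CCAAT box on either strand in capitals. Hmmr is at chr11:40733418-40733657, Cdk1 at chr10:69352893-69353132, Top2a at chr11:99024170-99024409 and Cdc20 at chr4:118437324-118437563, each on the minus strand.
Hmmr: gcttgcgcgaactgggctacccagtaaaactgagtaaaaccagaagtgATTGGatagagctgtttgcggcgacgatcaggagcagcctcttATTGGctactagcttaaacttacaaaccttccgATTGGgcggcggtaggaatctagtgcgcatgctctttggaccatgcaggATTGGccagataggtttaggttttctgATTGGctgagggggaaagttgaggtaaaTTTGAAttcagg
Cdk1: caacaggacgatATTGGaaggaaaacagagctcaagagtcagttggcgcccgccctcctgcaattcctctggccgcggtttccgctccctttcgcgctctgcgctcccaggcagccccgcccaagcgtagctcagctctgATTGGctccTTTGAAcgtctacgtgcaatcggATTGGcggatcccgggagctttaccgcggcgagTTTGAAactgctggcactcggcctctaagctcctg
Top2a: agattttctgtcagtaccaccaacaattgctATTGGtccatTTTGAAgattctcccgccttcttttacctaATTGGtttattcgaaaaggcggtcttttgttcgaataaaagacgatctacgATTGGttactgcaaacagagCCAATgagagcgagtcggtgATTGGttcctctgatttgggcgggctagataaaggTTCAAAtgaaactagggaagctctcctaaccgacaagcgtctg
Cdc20: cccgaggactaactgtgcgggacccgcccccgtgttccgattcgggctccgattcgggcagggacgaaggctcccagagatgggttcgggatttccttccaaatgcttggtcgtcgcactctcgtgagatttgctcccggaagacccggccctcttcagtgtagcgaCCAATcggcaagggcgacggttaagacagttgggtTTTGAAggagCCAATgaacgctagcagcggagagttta
In Hmmr the only CHR began 9 bases into the transcript, in Cdc20 18 bases before the gene start, and Cdk1 and Top2a each held 2. RefSeq windows of 300 bases (250 before to 50 after the start) were matched for 10015 of the 14916 genes. Of the 44 matched G2/M genes, 34 (77.3%) held TTTGAA on either strand, against 11.8% of all matched windows, and 34 (77.3%) held CCAAT, against 38.7%. Both motifs stood in 65.9% of the G2/M windows and in 4.94% of all. Among 40 S-phase genes 10% held the CHR. These are matches of letters, not sites shown to be bound in these cells.

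Fewer of the S-phase genes passed. Of 50 tested, 20 were lower and 1 was higher, with a median log2 change of -0.17. E2f2, an activator of replication genes, had 3.73 and 4.87 CPM in sgPcyt2 cells, against 9.87 and 8.9 CPM in cDNA cells, and fell by 1.13 ± 0.15 on the log2 scale (adjusted p = 7.69e-08). The replication licensing factor Cdc6 had 4.93 and 6.29 CPM in sgPcyt2 cells, against 8.44 and 8.65 CPM in cDNA cells, and fell by 0.61 ± 0.14 on the log2 scale (adjusted p = 0.000654). Rrm2, a subunit of ribonucleotide reductase, had 41.1 and 55.9 CPM in sgPcyt2 cells, against 77.7 and 68.8 CPM in cDNA cells, and fell by 0.60 ± 0.15 on the log2 scale (adjusted p = 0.0329). Its call was lost without cDNA library 1 (adjusted p = 0.0747), when only the 4 libraries off doxycycline were fitted (0.107) and with the replicate number as a block (0.0617). Tk1, a thymidine kinase, had 10.9 and 15.5 CPM in sgPcyt2 cells, against 20.5 and 17.4 CPM in cDNA cells (log2 change -0.52 ± 0.11, adjusted p = 0.000344). The number of S-phase genes lower was 5 without sgPcyt2 library 1 and 9 without cDNA library 1, and Cdc6 and Tk1 were not called without sgPcyt2 library 1 (adjusted p = 0.0546 and 0.0799). Cdkn1b, the cell cycle inhibitor p27 and chosen after its values were seen, had 48.8 and 47.8 CPM in sgPcyt2 cells, against 33.9 and 34.7 CPM in cDNA cells, and rose by 0.49 ± 0.066 on the log2 scale (adjusted p = 3.86e-08).

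Of 47 p53 target genes tested, 25 were lower and 5 were higher in sgPcyt2 cells, with a median log2 change of -0.24. Cdkn1a, whose product p21 blocks cyclin-dependent kinases, had 291 and 302 CPM in sgPcyt2 cells, against 383 and 392 CPM in cDNA cells, and fell by 0.39 ± 0.039 on the log2 scale (adjusted p = 2.46e-11). Mdm2, the ubiquitin ligase that degrades p53, had 518 and 546 CPM in sgPcyt2 cells, against 783 and 781 CPM in cDNA cells, and fell by 0.56 ± 0.039 on the log2 scale (adjusted p = 2.58e-16). Ccng1, cyclin G1, had 1267 and 1276 CPM in sgPcyt2 cells, against 1627 and 1639.6 CPM in cDNA cells, and fell by 0.36 ± 0.038 on the log2 scale (adjusted p = 1.18e-10). For all 3 both sgPcyt2 libraries lay below both cDNA libraries but well above every on-doxycycline library. Among other members, Sytl1, a vesicle trafficking protein, had 35.2 and 31.4 CPM in sgPcyt2 cells, against 64.2 and 62.4 CPM in cDNA cells, and fell by 0.93 ± 0.076 on the log2 scale (adjusted p = 5.22e-14). Cd80, a T cell costimulatory ligand, had 4.4 and 4.1 CPM in sgPcyt2 cells, against 7.98 and 8.03 CPM in cDNA cells, and fell by 0.91 ± 0.17 on the log2 scale (adjusted p = 3.67e-05). Ckap2, a spindle protein that is also a mitotic gene, had 24.3 and 28.5 CPM in sgPcyt2 cells, against 50.2 and 44.4 CPM in cDNA cells, and fell by 0.84 ± 0.077 on the log2 scale (adjusted p = 1.76e-12). The groups did not overlap in these 3 either, which their choice required. Bax, the pore-forming death protein, had 160.1 and 161 CPM in sgPcyt2 cells, against 159 and 163 CPM in cDNA cells, and did not pass (log2 change -0.0032 ± 0.045, adjusted p = 0.968). The death receptor Fas had 10.6 and 13.4 CPM in sgPcyt2 cells, against 16 and 16.6 CPM in cDNA cells, and fell by 0.44 ± 0.13 on the log2 scale (adjusted p = 0.00732), and this call did not hold without sgPcyt2 library 1 (adjusted p = 0.233), without cDNA library 2 (adjusted p = 0.0534) or by DESeq2 (adjusted p = 0.139). A few targets went the other way. Gls2, the mitochondrial glutaminase, had 29.9 and 29 CPM in sgPcyt2 cells, against 14.3 and 13.9 CPM in cDNA cells, and rose by 1.07 ± 0.10 on the log2 scale (adjusted p = 1.41e-12); in unedited KPsh cells it was lower off doxycycline (log2 change -1.42). Sesn1, a stress-induced inhibitor of mTORC1, had 15.8 and 14.5 CPM in sgPcyt2 cells, against 9.94 and 12.2 CPM in cDNA cells, and rose by 0.45 ± 0.12 on the log2 scale (adjusted p = 0.00313). This call did not hold without cDNA library 1, without sgPcyt2 library 1 or by DESeq2 (adjusted p = 0.0503). Sesn1 was likewise lower off doxycycline in unedited KPsh cells (log2 change -1.09). Counts of targets that rose were 3 by DESeq2 and 3 without sgPcyt2 library 1. Fas, Bax and Sesn1 were picked after their values were seen. On doxycycline 8 of the 47 targets were higher and 11 lower, and there Cdkn1a was higher in sgPcyt2 cells (72.7 and 74.6 CPM, against 49.2 and 50.8 CPM in cDNA cells, log2 change 0.56, adjusted p = 1.82e-11).

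Of 9 tested genes of phosphatidylethanolamine synthesis and its methylation, 1 was higher and 2 were lower, 1 of them Pcyt2 itself. Etnk1, the ethanolamine kinase upstream of PCYT2, had 369.7 and 358 CPM in sgPcyt2 cells, against 327 and 332 CPM in cDNA cells, and rose by 0.14 ± 0.039 on the log2 scale (adjusted p = 0.00321). Selenoi, which joins CDP-ethanolamine to diacylglycerol, had 166 and 169.5 CPM in sgPcyt2 cells, against 158 and 156 CPM in cDNA cells, and did not pass (log2 change 0.094 ± 0.045, adjusted p = 0.104). Cept1, which can use CDP-ethanolamine or CDP-choline, had 76.6 and 74.7 CPM in sgPcyt2 cells, against 84.8 and 84.5 CPM in cDNA cells, and fell by 0.16 ± 0.055 on the log2 scale (adjusted p = 0.0175). Both changes were under 0.2 on the log2 scale, and 24.9% of the annotated exon bases of Cept1 overlap those of other tested genes. The call of Etnk1 was lost without cDNA library 1 (adjusted p = 0.0765), and that of Cept1 without sgPcyt2 library 2 (0.0578), without cDNA library 1 (0.0712) or 2 (0.0583) and by DESeq2 (adjusted p = 0.112). On the phosphatidylserine route, Ptdss1 and Ptdss2, the phosphatidylserine synthases, had log2 changes of 0.091 ± 0.059 and 0.12 ± 0.094. Pisd, the mitochondrial decarboxylase, had 62.1 and 53.1 CPM in sgPcyt2 cells, against 55.3 and 59.7 CPM in cDNA cells, and a log2 change of 0.0026 ± 0.067, with 20.9% of its exon bases shared with neighbours. None of these 3 passed. Pemt, which methylates phosphatidylethanolamine to phosphatidylcholine, and Etnk2 stood under 3 CPM in every off-doxycycline library and did not pass.

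In the choline branch 4 of 9 tested genes were higher and 2 lower. Chpt1, which joins CDP-choline to diacylglycerol, had 29.9 and 32.4 CPM in sgPcyt2 cells, against 17.6 and 22.8 CPM in cDNA cells, and rose by 0.62 ± 0.10 on the log2 scale (adjusted p = 1.92e-06). On doxycycline it had 8.28 and 7.61 CPM in sgPcyt2 cells and 14.5 and 12.9 CPM in cDNA cells, the opposite order, and the difference between the effects was 1.40 ± 0.17 (adjusted p = 5.27e-09). Chkb, a choline and ethanolamine kinase, had 39.4 and 38.2 CPM in sgPcyt2 cells, against 31.2 and 31.9 CPM in cDNA cells, and rose by 0.30 ± 0.076 on the log2 scale (adjusted p = 0.0016); 57.6% of its exon bases overlap those of other tested genes. Chka, the other choline kinase, had 573 and 547 CPM in sgPcyt2 cells, against 599 and 595 CPM in cDNA cells, and did not pass (log2 change -0.093 ± 0.038, adjusted p = 0.0538), although it was called lower with upper quartile scaling (adjusted p = 0.0306), with no filter on low counts (0.0334) and without sgPcyt2 library 1 (0.0166). Pcyt1a, the choline counterpart of Pcyt2, had 151 and 162 CPM in sgPcyt2 cells, against 172 and 172 CPM in cDNA cells (log2 change -0.14 ± 0.045, adjusted p = 0.0158). Its call did not hold without sgPcyt2 library 1 (adjusted p = 0.249), without cDNA library 1 (0.0666) or 2 (0.0655), or by DESeq2 (0.0908). The carriers of the choline transporter-like family moved in both directions. Slc44a1 had 136 and 136 CPM in sgPcyt2 cells, against 124 and 123 CPM in cDNA cells (log2 change 0.13 ± 0.049, adjusted p = 0.029). Slc44a2 had 89.4 and 92 CPM in sgPcyt2 cells, against 101 and 107 CPM in cDNA cells (log2 change -0.20 ± 0.051, adjusted p = 0.00217). Slc44a4 had 2.33 and 2.12 CPM in sgPcyt2 cells, against 1.37 and 1.18 CPM in cDNA cells (log2 change 0.80 ± 0.32, adjusted p = 0.0465). Slc44a2 lost its call without cDNA library 2 (adjusted p = 0.0559). Slc44a1 and Slc44a4 were not called without any 1 of the 4 libraries (adjusted p = 0.0835 to 0.153 and 0.109 to 0.246), by DESeq2 (0.14 and 0.362) or with no filter on low counts (0.0807 and 0.0782). The number of choline genes that rose was 2 by DESeq2, 2 with no filter, 2 without sgPcyt2 library 1, 2 without sgPcyt2 library 2, 2 without cDNA library 1 and 2 without cDNA library 2, and the number that fell was 1 by DESeq2, 1 without cDNA library 1 and 0 without cDNA library 2. Flvcr1, a choline and heme carrier, had a log2 change of -0.080 ± 0.12 and did not pass, and Pcyt1b had 0.333 and 0 CPM in sgPcyt2 cells, against 0.327 and 0.311 CPM in cDNA cells and did not pass.

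Enzymes that break phospholipids down or release their headgroups rose more often than they fell, with 10 of 31 higher, 3 lower and a median of 0.15. Smpd3, a neutral sphingomyelinase that splits phosphocholine from sphingomyelin, had 245 and 239 CPM in sgPcyt2 cells, against 97.6 and 97.5 CPM in cDNA cells, and rose by 1.31 ± 0.045 on the log2 scale (adjusted p = 1.81e-27). Faah, a hydrolase that frees ethanolamine from fatty acid ethanolamides, had 38.5 and 36.3 CPM in sgPcyt2 cells, against 18.8 and 20.04 CPM in cDNA cells, and rose by 0.95 ± 0.089 on the log2 scale (adjusted p = 3.38e-12). For both genes each sgPcyt2 library lay well above each cDNA library, which their choice favours. Pnpla7, a lysophospholipase that yields glycerophosphocholine, had 27.6 and 25.4 CPM in sgPcyt2 cells, against 19.9 and 18.5 CPM in cDNA cells, and rose by 0.46 ± 0.10 on the log2 scale (adjusted p = 0.000137). Pla2g7, the secreted platelet-activating factor acetylhydrolase, had 7.93 and 6.64 CPM in sgPcyt2 cells, against 4.32 and 4.79 CPM in cDNA cells, and rose by 0.68 ± 0.17 on the log2 scale (adjusted p = 0.00133), and this call did not hold without sgPcyt2 library 1 (adjusted p = 0.057). The number that rose was 6 by DESeq2 and 6 without cDNA library 2, and the number that fell was 1 by DESeq2. On doxycycline Smpd3 ran the other way, with 123 and 125 CPM in sgPcyt2 cells and 182 and 172 CPM in cDNA cells.

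Of 14 receptors and carriers of lipid uptake 6 were higher and 3 lower. Vldlr, a lipoprotein receptor, had 68.8 and 57.7 CPM in sgPcyt2 cells, against 26.4 and 26.4 CPM in cDNA cells, and rose by 1.26 ± 0.090 on the log2 scale (adjusted p = 5.44e-14). Lrp1, a large endocytic receptor of the same family, had 269 and 237 CPM in sgPcyt2 cells, against 125 and 129 CPM in cDNA cells, and rose by 0.99 ± 0.050 on the log2 scale (adjusted p = 2.21e-20). Slc27a1, a fatty acid transport protein, had 11.3 and 10.1 CPM in sgPcyt2 cells, against 5.43 and 6.22 CPM in cDNA cells, and rose by 0.87 ± 0.16 on the log2 scale (adjusted p = 1.74e-05). The sgPcyt2 libraries were the higher ones in all 3, as their choice required. Cav1, the main protein of caveolae, went down, with 46.3 and 55 CPM in sgPcyt2 cells, against 83.2 and 81.1 CPM in cDNA cells (log2 change -0.70 ± 0.062, adjusted p = 1.51e-12). Among 26 genes of glycerolipid synthesis, lipins and lipid droplets, 3 were higher and 10 lower. Dgat2, which makes triacylglycerol, had 15.5 and 19.4 CPM in sgPcyt2 cells, against 7.45 and 6.78 CPM in cDNA cells, and rose by 1.29 ± 0.13 on the log2 scale (adjusted p = 6.40e-11). Plpp3, a lipid phosphate phosphatase, had 34.8 and 32.9 CPM in sgPcyt2 cells, against 15.6 and 16.4 CPM in cDNA cells, and rose by 1.08 ± 0.093 on the log2 scale (adjusted p = 2.33e-13). In contrast Hilpda, a lipid droplet protein induced by hypoxia, had 23.9 and 24.7 CPM in sgPcyt2 cells, against 39.9 and 40.02 CPM in cDNA cells, and fell by 0.72 ± 0.080 on the log2 scale (adjusted p = 4.75e-10). Lpin1, a phosphatidate phosphatase, had 59.9 and 54 CPM in sgPcyt2 cells, against 77.9 and 75.2 CPM in cDNA cells, and fell by 0.43 ± 0.065 on the log2 scale (adjusted p = 5.90e-07). Of 17 acyltransferases and ether lipid enzymes 7 were lower and 1 was higher. Mboat1, a lysophospholipid acyltransferase, had 125 and 129.99 CPM in sgPcyt2 cells, against 209.8 and 201 CPM in cDNA cells, and fell by 0.69 ± 0.043 on the log2 scale (adjusted p = 7.43e-18). Far1, which makes the fatty alcohol of ether lipids, had 342 and 345 CPM in sgPcyt2 cells, against 503 and 489.5 CPM in cDNA cells, and fell by 0.53 ± 0.039 on the log2 scale (adjusted p = 1.20e-15). Tmem86a, a lysoplasmalogenase, had 15.3 and 14.9 CPM in sgPcyt2 cells, against 22 and 21.7 CPM in cDNA cells, and fell by 0.53 ± 0.10 on the log2 scale (adjusted p = 5.55e-05). Lpcat1 was also lower, by 0.44 on the log2 scale, but its call was lost without sgPcyt2 library 1 (adjusted p = 0.122) and without cDNA library 1 (0.0545). The number of these enzymes that rose was 0 by DESeq2, 0 with no filter, 0 without sgPcyt2 library 1, 0 without sgPcyt2 library 2 and 0 without cDNA library 1.

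Sterol genes were higher more often than lower, with 9 of 26 higher and 1 lower, and a median of 0.13. Insig1, which holds the sterol sensor in the endoplasmic reticulum, had 29.5 and 27.3 CPM in sgPcyt2 cells, against 17.3 and 16.6 CPM in cDNA cells, and rose by 0.75 ± 0.088 on the log2 scale (adjusted p = 1.67e-09). Fdps, a prenyl diphosphate synthase of the mevalonate pathway, had 44 and 51.4 CPM in sgPcyt2 cells, against 29.2 and 29.7 CPM in cDNA cells, and rose by 0.69 ± 0.071 on the log2 scale (adjusted p = 5.26e-11); 26.7% of its exon bases overlap a neighbour. Counts of sterol genes that fell were 3 without sgPcyt2 library 2. On doxycycline none of the 26 was higher and 12 were lower, and the effects differed with a higher value off doxycycline for 15. Fatty acid genes split, with 9 of 24 higher and 5 lower. Acsl3, an acyl-CoA synthetase of lipid droplets, had 194 and 172 CPM in sgPcyt2 cells, against 79.5 and 87.9 CPM in cDNA cells, and rose by 1.12 ± 0.053 on the log2 scale (adjusted p = 3.39e-21). Scd1, the stearoyl-CoA desaturase, had 133 and 122 CPM in sgPcyt2 cells, against 66.7 and 67.1 CPM in cDNA cells, and rose by 0.93 ± 0.054 on the log2 scale (adjusted p = 1.18e-18). The acyl-CoA synthetase Acsl1 had 9.07 and 8.55 CPM in sgPcyt2 cells, against 3.6 and 5.66 CPM in cDNA cells, and rose by 0.92 ± 0.17 on the log2 scale (adjusted p = 1.83e-05). Fads2, a desaturase of polyunsaturated fatty acids, had 14.9 and 15.4 CPM in sgPcyt2 cells, against 8.83 and 7.22 CPM in cDNA cells, and rose by 0.92 ± 0.12 on the log2 scale (adjusted p = 4.30e-08). For each of these 4 the groups did not overlap, which their choice required.

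Genes of the amino acid stress response, many of them targets of the factor ATF4, were higher more often than lower. Of 43 tested, 13 were higher and 6 lower off doxycycline, whereas 1 was higher and 17 were lower on it. Slc7a11, the cystine importer that feeds glutathione synthesis, had 375 and 325 CPM in sgPcyt2 cells, against 128 and 148 CPM in cDNA cells, and rose by 1.34 ± 0.067 on the log2 scale (adjusted p = 3.82e-10). On doxycycline it had 53 and 52.5 CPM in sgPcyt2 cells and 84.3 and 82.4 CPM in cDNA cells, so the order of the groups turned, and the effects differed by 2.00 ± 0.11 (adjusted p = 1.50e-09). Its promoter is shown because it holds TGATGCAA, an ATF4 element, in capitals, once on each strand, in a window from 220 bases before to 20 after the start (chr3:50443594-50443833, minus strand, RefSeq, GRCm38.p6).
Slc7a11: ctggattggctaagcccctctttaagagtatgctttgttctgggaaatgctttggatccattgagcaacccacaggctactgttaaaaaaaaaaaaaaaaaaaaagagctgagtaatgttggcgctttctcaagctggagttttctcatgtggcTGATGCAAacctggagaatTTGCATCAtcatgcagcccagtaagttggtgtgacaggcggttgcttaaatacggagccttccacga
The same letters stood in 10 of 35 matched promoters of this list (28.6%) and in 0.589% of all matched promoters. Stc2, a secreted glycoprotein of the stress response, had 68.5 and 62 CPM in sgPcyt2 cells, against 36.1 and 38 CPM in cDNA cells, and rose by 0.82 ± 0.068 on the log2 scale (adjusted p = 1.09e-13). Nupr1, a stress-induced chromatin protein, had 15.5 and 12.2 CPM in sgPcyt2 cells, against 6.93 and 7.97 CPM in cDNA cells, and rose by 0.89 ± 0.15 on the log2 scale (adjusted p = 3.01e-06). The number of genes of this list that fell was 3 by DESeq2, 3 without sgPcyt2 library 1, 11 without sgPcyt2 library 2 and 3 without cDNA library 1. Genes of protein folding in the endoplasmic reticulum moved both ways, with 8 of 33 higher and 6 lower. The lower count was near the share of 16.8% over all genes. Dnajc10, a disulfide reductase that helps clear misfolded proteins, had 489 and 439.7 CPM in sgPcyt2 cells, against 179.8 and 177 CPM in cDNA cells, and rose by 1.38 ± 0.044 on the log2 scale (adjusted p = 7.36e-27). Sec24d, a cargo adaptor of COPII vesicles, and Wfs1, an endoplasmic reticulum membrane protein, fell by 0.60 and 0.54 on the log2 scale. Dnajb9, a chaperone of the folding response, had 43.4 and 43.1 CPM in sgPcyt2 cells, against 36.3 and 35 CPM in cDNA cells, and rose by 0.28 ± 0.075 on the log2 scale (adjusted p = 0.00283), and this call did not hold without cDNA library 2 (adjusted p = 0.0571) or by DESeq2 (0.0538). The number of folding genes that rose was 4 by DESeq2, 5 without sgPcyt2 library 2, 4 without cDNA library 1 and 4 without cDNA library 2.

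Glutathione and detoxification genes included some of the largest rises. In the antioxidant list 14 of 37 genes were higher and 9 lower, with a median near 0 (-0.0045). Gsta3, a glutathione transferase, had 128 and 116 CPM in sgPcyt2 cells, against 18.6 and 19.8 CPM in cDNA cells, and rose by 2.67 ± 0.073 on the log2 scale (adjusted p = 4.47e-31). Gstm1, a transferase of the mu class, had 372 and 337 CPM in sgPcyt2 cells, against 106 and 108 CPM in cDNA cells, and rose by 1.73 ± 0.049 on the log2 scale (adjusted p = 9.49e-29). Mgst1, a microsomal transferase, had 7.73 and 7.84 CPM in sgPcyt2 cells, against 3.53 and 1.8 CPM in cDNA cells, and rose by 1.55 ± 0.22 on the log2 scale (adjusted p = 2.02e-07). On doxycycline Gstm1 was lower in sgPcyt2 cells (24.6 and 24.6 CPM, against 35.6 and 41.3 CPM in cDNA cells), and Gsta3 and Mgst1 were close to 0 in all 4 libraries. Families of detoxifying enzymes were then counted by symbol, a choice made after values were seen. All 14 tested UDP-glucuronosyltransferase (Ugt) genes were higher, with a median of 1.13, and on doxycycline 10 of them were lower and none higher. The 9 genes of the Ugt1a cluster share exons, so they are close to 1 measurement; their log2 changes lay between 1.08 and 1.18. Ugt2b34, which stands outside that cluster, had 882 and 739.9 CPM in sgPcyt2 cells, against 198 and 205 CPM in cDNA cells, and rose by 2.01 ± 0.13 on the log2 scale (adjusted p = 0.000328). Of 17 cytochrome P450 (Cyp) genes 10 were higher and 2 lower, with a median of 0.83. Cyp3a13 had 382 and 341 CPM in sgPcyt2 cells, against 155 and 165 CPM in cDNA cells, and rose by 1.18 ± 0.047 on the log2 scale (adjusted p = 1.11e-23). Cyp2c65 had 125 and 116 CPM in sgPcyt2 cells, against 37.9 and 40.5 CPM in cDNA cells, and rose by 1.62 ± 0.062 on the log2 scale (adjusted p = 1.15e-25). Of 20 glutathione transferase genes 11 were higher and 1 lower. Nr1i2, the xenobiotic receptor PXR, had 9.8 and 10.2 CPM in sgPcyt2 cells, against 1.37 and 1.37 CPM in cDNA cells, and rose by 2.86 ± 0.21 on the log2 scale (adjusted p = 2.38e-15). Abcc2, a canalicular export pump for conjugates, had 20.4 and 19.8 CPM in sgPcyt2 cells, against 5.69 and 6.22 CPM in cDNA cells, and rose by 1.75 ± 0.13 on the log2 scale (adjusted p = 2.34e-15). The related genes within these families can share reads, so both the values of single members and the family counts are uncertain. Members could also pass the expression filter through sgPcyt2 cells alone. The count of lower Cyp genes was 1 by DESeq2, between 0 and 1 without any 1 library, and 1 with either other filter.

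**Figure D2:**
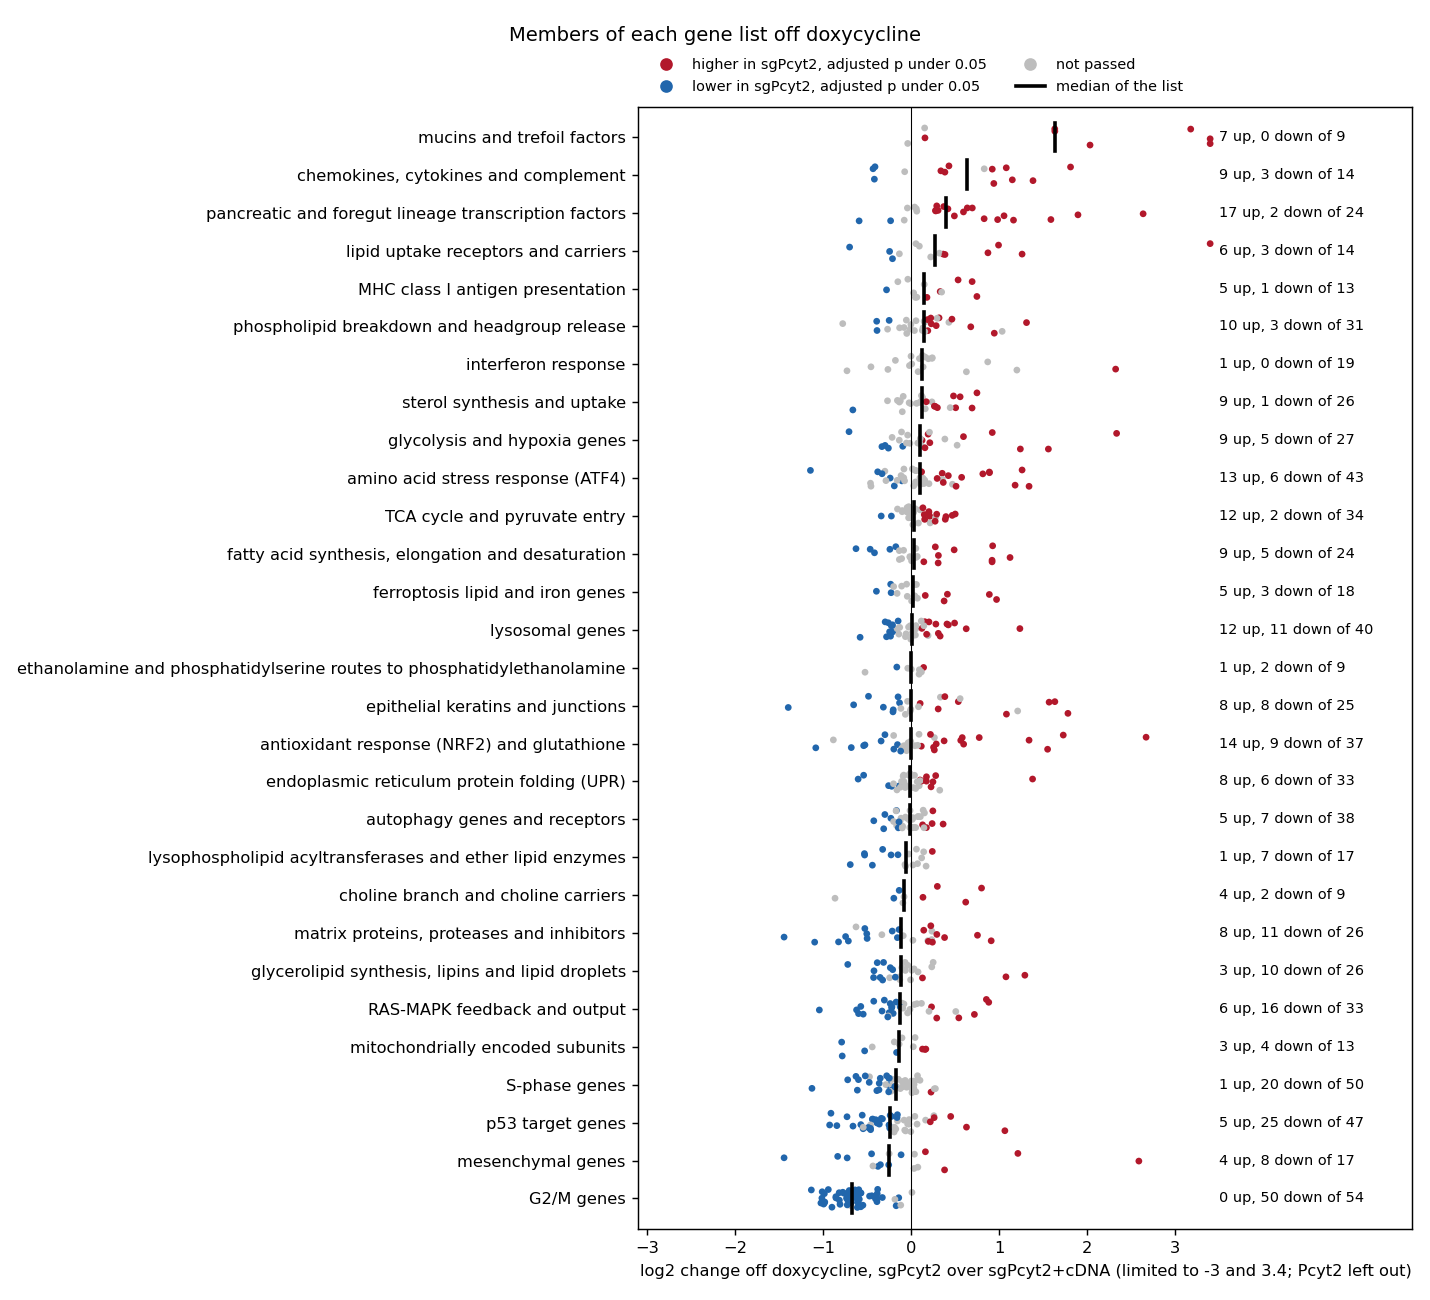
Log2 change off doxycycline, sgPcyt2 over sgPcyt2+cDNA, of every tested member, other than Pcyt2, of 29 gene lists (rows), coloured by the call at an adjusted p under 0.05, with the median as a black bar; values beyond the axis stand at its limit. G2/M genes lie lowest with a median of -0.67 and 50 of 54 lower, and mucins and trefoil factors highest with a median of 1.63 and 7 of 9 higher. Members of the mucin list, and of other lists, could pass the expression filter through sgPcyt2 cells alone.

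Hypoxia and central carbon genes moved in both directions. Of 27 glycolysis and hypoxia genes 9 were higher and 5 lower, the lower count being near the share of 16.8% over all genes. Ndrg1, a stress- and hypoxia-induced gene, had 166 and 147 CPM in sgPcyt2 cells, against 32.2 and 29.7 CPM in cDNA cells, and rose by 2.34 ± 0.064 on the log2 scale (adjusted p = 4.47e-31). It was lower in sgPcyt2 cells on doxycycline (9.16 and 9.99 CPM, against 18 and 18.6 CPM in cDNA cells), and the effects differed by 3.27 ± 0.13 (adjusted p = 2.09e-24). P4ha2, a collagen prolyl hydroxylase, had 18.7 and 19.3 CPM in sgPcyt2 cells, against 6.74 and 9.27 CPM in cDNA cells, and rose by 1.24 ± 0.13 on the log2 scale (adjusted p = 4.52e-11). Vegfa, the endothelial growth factor, had 65.9 and 58.6 CPM in sgPcyt2 cells, against 32.6 and 33 CPM in cDNA cells, and rose by 0.92 ± 0.071 on the log2 scale (adjusted p = 7.55e-15). Pgk1, the glycolytic enzyme phosphoglycerate kinase, was lower, with 316 and 354 CPM in sgPcyt2 cells, against 546 and 546 CPM in cDNA cells, and fell by 0.71 ± 0.042 on the log2 scale (adjusted p = 2.48e-18). Of 34 genes of the TCA cycle and pyruvate entry 12 were higher and 2 lower. Idh2 and Idh1, the isocitrate dehydrogenases of mitochondria and cytosol, rose by 0.50 and 0.39 on the log2 scale, and Pdk2, a kinase that restrains pyruvate dehydrogenase, rose by 0.40. Mpc1, a subunit of the mitochondrial pyruvate carrier with 23.1% of its exon bases shared with neighbours, had a log2 change of 0.47 ± 0.16. It lost its call without each of the 4 libraries in turn (adjusted p = 0.0521 to 0.127) and by DESeq2 (0.124). The number of TCA genes that rose was 7 by DESeq2, 7 without sgPcyt2 library 1 and 5 without cDNA library 2. Of 13 mitochondrially encoded subunits 3 were higher and 4 lower; mt-Nd1 fell by 0.17 and mt-Nd6 rose by 0.17. The little-counted mt-Co2 and mt-Atp6 fell by 0.78 and 0.53. Calls were lost for mt-Nd6 and mt-Co2 without sgPcyt2 library 1 (adjusted p = 0.074 and 0.1), for mt-Co2 without cDNA library 2 (0.0746), and for mt-Atp6 without cDNA library 1 (0.0536) and by DESeq2 (0.0781). The number of these subunits that rose was 1 by DESeq2, 0 without sgPcyt2 library 1 and 1 without cDNA library 1, and the number that fell was 2 without cDNA library 2. Mitochondrial RNA took 3.31% to 3.51% of counts in sgPcyt2 cells and 3.33% to 3.34% in cDNA cells off doxycycline.

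Among 40 lysosomal genes 12 were higher and 11 lower. Ctsc, a dipeptidyl peptidase of lysosomes, had 60.9 and 62.6 CPM in sgPcyt2 cells, against 26.2 and 26.2 CPM in cDNA cells, and rose by 1.24 ± 0.065 on the log2 scale (adjusted p = 1.05e-20). Gaa, the lysosomal alpha-glucosidase, had 181 and 178 CPM in sgPcyt2 cells, against 114 and 119 CPM in cDNA cells, and rose by 0.63 ± 0.047 on the log2 scale (adjusted p = 3.39e-15). Ctsl, the protease cathepsin L, had 436 and 449 CPM in sgPcyt2 cells, against 655 and 669 CPM in cDNA cells, and fell by 0.58 ± 0.038 on the log2 scale (adjusted p = 3.13e-17); on doxycycline it was higher in sgPcyt2 cells (305 and 307 CPM, against 186 and 189.5 CPM in cDNA cells). For Ctsl 26.8% of the exon bases overlap a neighbouring gene. Hexa, a subunit of hexosaminidase, rose by 0.49 on the log2 scale. Autophagy genes showed 5 higher and 7 lower of 38, near the shares over all genes (16.3% higher and 16.8% lower). Atg9b, a lipid scramblase of autophagosome membranes, had 158 and 147 CPM in sgPcyt2 cells, against 200.5 and 209 CPM in cDNA cells, and fell by 0.42 ± 0.051 on the log2 scale (adjusted p = 5.61e-09). Pik3c3, the class III lipid kinase, rose by 0.36, and Wipi1, which reads its product, fell by 0.31. Atg4a, an Atg8 protease, had a log2 change of -0.30 ± 0.10, and its call was lost without either sgPcyt2 library (adjusted p = 0.0779 and 0.0585), without cDNA library 1 (0.146) and by DESeq2 (0.134). The number of autophagy genes that rose was 3 by DESeq2 and 3 without cDNA library 1, and the number that fell was 2 by DESeq2, 3 without sgPcyt2 library 1, 4 without sgPcyt2 library 2 and 3 without cDNA library 1. Of 18 ferroptosis genes 5 were higher and 3 lower, the lower count being near the share of 16.8% over all genes. Gch1, which starts the synthesis of the antioxidant tetrahydrobiopterin, had 33.9 and 34.1 CPM in sgPcyt2 cells, against 15.2 and 19.4 CPM in cDNA cells, and rose by 0.97 ± 0.10 on the log2 scale (adjusted p = 3.40e-11). Fth1, the ferritin heavy chain, had 1068 and 1120 CPM in sgPcyt2 cells, against 847 and 839.5 CPM in cDNA cells, and rose by 0.38 ± 0.039 on the log2 scale (adjusted p = 5.04e-11), whereas Ptgs2, cyclooxygenase 2, fell by 0.39. Dhodh, of pyrimidine synthesis, had a log2 change of 0.41 ± 0.14, with its call lost without sgPcyt2 library 2 (adjusted p = 0.12), cDNA library 1 (0.0941) or 2 (0.0592) and by DESeq2 (0.0801). The number of ferroptosis genes that rose was 3 by DESeq2, 3 without sgPcyt2 library 2 and 3 without cDNA library 1.

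Transcription factors of pancreas and foregut lineage were mostly higher, 17 of 24, with 2 lower and a median of 0.39. Sox9, a factor of pancreatic ducts and progenitors, had 53.4 and 43.2 CPM in sgPcyt2 cells, against 12.4 and 13.6 CPM in cDNA cells, and rose by 1.90 ± 0.10 on the log2 scale (adjusted p = 1.01e-20). Hhex, an early foregut factor, had 60.9 and 55.9 CPM in sgPcyt2 cells, against 18.7 and 20.1 CPM in cDNA cells, and rose by 1.59 ± 0.080 on the log2 scale (adjusted p = 2.90e-21). Onecut2, a hepatic and pancreatic factor, had 413 and 352 CPM in sgPcyt2 cells, against 172 and 170.2 CPM in cDNA cells, and rose by 1.16 ± 0.067 on the log2 scale (adjusted p = 9.53e-09). For all 3 each sgPcyt2 library stood at more than 2 times each cDNA library, which their choice as the largest changes favours. Onecut1 had 22.1 and 16.5 CPM in sgPcyt2 cells, against 9.15 and 9.4 CPM in cDNA cells, and rose by 1.06 ± 0.13 on the log2 scale (adjusted p = 1.03e-08), although 52.8% of its exon bases overlap a neighbouring gene. Pdx1, the pancreatic master factor, rose by 0.29 ± 0.067 on the log2 scale (adjusted p = 0.000531). Hnf4a, a factor of liver and gut epithelium and picked after its values were seen, had 467 and 464 CPM in sgPcyt2 cells, against 544 and 551 CPM in cDNA cells, and was 1 of the 2 that fell (log2 change -0.23 ± 0.038, adjusted p = 2.15e-06). On doxycycline 6 of these factors were higher and 7 lower. Sox9 was higher there too (log2 change 0.77, adjusted p = 3.52e-05), and Hhex did not pass (0.089, adjusted p = 0.607).

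Of 19 listed mucins and trefoil factors only 9 were tested, of which 7 were higher and 0 lower. The expression filter can pass a gene through 1 group, so members could enter because they were high in sgPcyt2 cells. Muc5ac, the gel-forming mucin of gastric surface epithelium, had 78.6 and 73.5 CPM in sgPcyt2 cells, against 23.3 and 25.6 CPM in cDNA cells, and rose by 1.63 ± 0.078 on the log2 scale (adjusted p = 9.00e-22). Gkn2, a gastrokine, had 8.2 and 6.92 CPM in sgPcyt2 cells, against 0.654 and 0.996 CPM in cDNA cells, and rose by 3.18 on the log2 scale. Muc5b, another gel-forming mucin, had 3.4 and 3.18 CPM in sgPcyt2 cells, against 0.85 and 0.747 CPM in cDNA cells, and rose by 2.03. Both were chosen after their values were seen, and both sgPcyt2 libraries lay above both cDNA libraries. Muc4, a membrane mucin, had 159.98 and 137 CPM in sgPcyt2 cells, against 137 and 129.6 CPM in cDNA cells (log2 change 0.16 ± 0.056, adjusted p = 0.0281), and this call did not hold without sgPcyt2 library 1 (adjusted p = 0.676), without cDNA library 2 (0.254) or by DESeq2 (0.123). With the filter of at least 1 CPM in 4 libraries, which keeps fewer of these low genes, 3 were higher. Of 25 keratins and junction genes 8 were higher and 8 lower. Elf3, an epithelial transcription factor, had 101 and 85 CPM in sgPcyt2 cells, against 44 and 43.6 CPM in cDNA cells, and rose by 1.08 ± 0.070 on the log2 scale (adjusted p = 2.38e-16). Cdh1, E-cadherin, had 1294 and 1275 CPM in sgPcyt2 cells, against 1031 and 1044 CPM in cDNA cells, and rose by 0.31 ± 0.037 on the log2 scale (adjusted p = 2.59e-09). Krt20, an intestinal keratin, had 390.1 and 375 CPM in sgPcyt2 cells, against 261 and 267 CPM in cDNA cells, and rose by 0.54 ± 0.039 on the log2 scale (adjusted p = 1.59e-15). The claudins Cldn6 and Cldn2 fell by 1.40 and 0.65, and Krt8, Krt18 and Krt19 were also among those lower. Mesenchymal genes were lower for 8 of 17 and higher for 4. Sparc, a matrix-binding glycoprotein, had 7.33 and 13.1 CPM in sgPcyt2 cells, against 30.5 and 24.9 CPM in cDNA cells, and fell by 1.44 ± 0.20 on the log2 scale (adjusted p = 0.000484). Cald1, an actin-binding protein, had 33.5 and 30.7 CPM in sgPcyt2 cells, against 53.5 and 52.8 CPM in cDNA cells, and fell by 0.73 ± 0.073 on the log2 scale (adjusted p = 3.00e-11). S100a4, a calcium-binding protein, fell by 0.83 and Zeb2, a repressor of E-cadherin, by 0.45; 51.7% of the exon bases of S100a4 overlap a neighbouring gene. The S100a family, counted by symbol after values were seen, had 10 of 11 genes lower and none higher. On doxycycline 6 of the 11 were lower and none was higher, with a median of -0.25. In the matrix list 8 of 26 were higher and 11 lower; Loxl2, a collagen cross-linking oxidase, fell by 1.10, Lamb3, a laminin chain, fell by 0.82, and Col4a5, a basement membrane collagen, rose by 0.91. The 14 fibroblast markers summed to 6.78 to 8.07 CPM in sgPcyt2 cells, against 3.98 to 4.97 CPM in cDNA cells, nearly all of it Pdgfra, and their part in these lists was not tested.

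RAS-MAPK output genes were called mostly lower off doxycycline and mostly higher on it. Off it 16 of 33 were lower and 6 higher; on it 25 were higher and none lower. Dusp1, an immediate-early phosphatase, had 3.13 and 3.46 CPM in sgPcyt2 cells, against 7.32 and 6.29 CPM in cDNA cells, and fell by 1.04 ± 0.19 on the log2 scale (adjusted p = 2.06e-05). Egr1, an immediate-early transcription factor, had 18.1 and 21.3 CPM in sgPcyt2 cells, against 30.7 and 29.6 CPM in cDNA cells, and fell by 0.62 ± 0.088 on the log2 scale (adjusted p = 1.46e-07). On doxycycline Egr1 had 64.6 and 61.1 CPM in sgPcyt2 cells and 22.5 and 22.8 CPM in cDNA cells, and the effects differed by -2.09 ± 0.12 (adjusted p = 2.28e-19). Among the genes called higher off doxycycline were 2 Sprouty inhibitors and a phosphatase of the pathway. Spry4 had 79 and 74.2 CPM in sgPcyt2 cells, against 41.8 and 41.3 CPM in cDNA cells, and rose by 0.88 ± 0.061 on the log2 scale (adjusted p = 2.44e-16). Spry1, with 24.4% of its exon bases shared with neighbours, had 10.1 and 9.33 CPM in sgPcyt2 cells, against 5.56 and 5.17 CPM in cDNA cells, and rose by 0.86 ± 0.16 on the log2 scale (adjusted p = 2.22e-05). Dusp4, a nuclear ERK phosphatase, had 68.9 and 64.3 CPM in sgPcyt2 cells, against 41.8 and 39.1 CPM in cDNA cells, and rose by 0.72 ± 0.066 on the log2 scale (adjusted p = 1.66e-12). Spry4 was higher on doxycycline as well (log2 change 0.76, adjusted p = 1.35e-13), and its effects off and on did not differ beyond the test (difference 0.12 ± 0.088, adjusted p = 0.332).

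Of 36 listed chemokines, cytokines and complement genes 14 were tested, of which 9 were higher and 3 lower. Members of this list and of the 2 lists that follow could pass the expression filter through sgPcyt2 cells alone. Spp1, the secreted osteopontin, had 145 and 125 CPM in sgPcyt2 cells, against 58.8 and 63 CPM in cDNA cells, and rose by 1.15 ± 0.071 on the log2 scale (adjusted p = 9.75e-11), with a larger rise on doxycycline (log2 change 1.81, difference -0.66 ± 0.094, adjusted p = 2.24e-05). Il18, a cytokine of epithelia, had 13.1 and 13.2 CPM in sgPcyt2 cells, against 6.08 and 6.35 CPM in cDNA cells, and rose by 1.08 ± 0.15 on the log2 scale (adjusted p = 8.63e-08). Cfb, complement factor B, had 44.5 and 44.7 CPM in sgPcyt2 cells, against 23.5 and 23 CPM in cDNA cells, and rose by 0.94 ± 0.085 on the log2 scale (adjusted p = 1.02e-12); 79.5% of its exon bases overlap a neighbouring gene. Of 13 tested antigen presentation genes, from 21 listed, 5 were higher and 1 lower. Tapbp, which loads peptides on MHC class I, had 75.4 and 72.8 CPM in sgPcyt2 cells, against 42.2 and 46 CPM in cDNA cells, and rose by 0.75 ± 0.065 on the log2 scale (adjusted p = 3.65e-13); 29% of its exon bases overlap a neighbouring gene. Cd274, the checkpoint ligand PD-L1, had 16.5 and 14.8 CPM in sgPcyt2 cells, against 9.29 and 10.02 CPM in cDNA cells, and rose by 0.69 ± 0.13 on the log2 scale (adjusted p = 2.77e-05). B2m, the light chain of MHC class I, rose by 0.53 and H2-T23, a nonclassical heavy chain, by 0.33; the call of B2m was lost without sgPcyt2 library 1 (adjusted p = 0.0568) and without cDNA library 1 (0.0908). The number of these genes that rose was 3 without cDNA library 1, and that of those that fell was 0 by DESeq2, 0 without sgPcyt2 library 2 and 0 without cDNA library 1. Of 19 tested interferon genes, from 34 listed, 1 was called higher and none lower, with a median of 0.13. The 1 gene was Mx1, named for an antiviral GTPase but annotated here as a polymorphic pseudogene. Mx1 had 17.7 and 14.6 CPM in sgPcyt2 cells, against 2.75 and 3.67 CPM in cDNA cells (log2 change 2.33 ± 0.17, adjusted p = 3.09e-15). The 20 immune markers summed to 36.8 to 39.2 CPM in sgPcyt2 cells, against 35.7 to 38.025 CPM in cDNA cells, and their part in the immune lists was not tested. Among detected markers of other cells, Pdgfra rose by 0.80, Csf1r fell by 0.44 and Cd14 rose by 0.29, while Cdh5 and Egfl7 had log2 changes of 0.10 and -0.23 and did not pass. The calls of Csf1r and Cd14 were lost without sgPcyt2 library 1 (adjusted p = 0.157 and 0.375), without cDNA library 1 (0.0794 and 0.17) or 2 (0.0938 and 0.0533), and by DESeq2 (0.152 and 0.167).

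Genes for ribosomal proteins were slightly lower as a group. Of 76 genes with Rpl or Rps symbols, a family chosen after its values were seen, 67 were lower and none was higher, with a median log2 change of -0.21. Rpl3 had 1174 and 1191 CPM in sgPcyt2 cells, against 1301 and 1314 CPM in cDNA cells, and fell by 0.14 ± 0.038 on the log2 scale (adjusted p = 0.00239). Rps6 had 358 and 356 CPM in sgPcyt2 cells, against 409.7 and 404 CPM in cDNA cells, and fell by 0.19 ± 0.039 on the log2 scale (adjusted p = 0.000122). On doxycycline 53 of the 76 were lower, none was higher, and the median was -0.14. The most abundant transcript of the sgPcyt2 libraries off doxycycline was Clu, a secreted chaperone also chosen after its values were seen. It had 22726 and 23125 CPM in sgPcyt2 cells, against 13775 and 13999 CPM in cDNA cells, and rose by 0.72 ± 0.039 on the log2 scale (adjusted p = 3.41e-20); on doxycycline it was higher in sgPcyt2 cells too (log2 change 0.86), and the effects did not differ beyond the test (difference -0.14 ± 0.055, adjusted p = 0.0581).

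The highest rises among called genes of at least 5 CPM, leaving out Gm and Rik symbols, went to genes that the cDNA cells expressed little. Picking by the largest log2 rise favours such genes. Klb, the coreceptor for endocrine FGFs, had 19.5 and 17.4 CPM in sgPcyt2 cells, against 1.11 and 1.37 CPM in cDNA cells, and rose by 3.88 ± 0.19 on the log2 scale (adjusted p = 6.91e-22). Bmf, a BH3-only death protein, had 59.6 and 53.3 CPM in sgPcyt2 cells, against 5.03 and 4.98 CPM in cDNA cells, and rose by 3.49 ± 0.12 on the log2 scale (adjusted p = 2.72e-25). In both the cDNA libraries stood under 6 CPM and the sgPcyt2 libraries above 10 CPM. Amdhd1 and Hal both act in histidine breakdown. Amdhd1 had 19.998 and 17.2 CPM in sgPcyt2 cells, against 1.44 and 2.18 CPM in cDNA cells, and rose by 3.35 ± 0.18 on the log2 scale (adjusted p = 5.13e-20). Hal, histidine ammonia lyase, had 47.1 and 42.2 CPM in sgPcyt2 cells, against 7.26 and 8.65 CPM in cDNA cells, and rose by 2.49 ± 0.11 on the log2 scale (adjusted p = 4.13e-23). Depp1, a target of FOXO factors, had 35.9 and 28.8 CPM in sgPcyt2 cells, against 3.14 and 3.92 CPM in cDNA cells, and rose by 3.19 ± 0.16 on the log2 scale (adjusted p = 4.91e-18). Among secreted and membrane proteins, Wnt4, a WNT ligand, had 46.9 and 39.1 CPM in sgPcyt2 cells, against 4.71 and 5.04 CPM in cDNA cells, and rose by 3.14 ± 0.12 on the log2 scale (adjusted p = 5.31e-25). Nepn, a small leucine-rich proteoglycan, had 134 and 111 CPM in sgPcyt2 cells, against 14.2 and 14.1 CPM in cDNA cells, and rose by 3.12 ± 0.23 on the log2 scale (adjusted p = 0.000527). Aqp8, a water channel of gut and liver, had 40.5 and 40.2 CPM in sgPcyt2 cells, against 4.84 and 4.48 CPM in cDNA cells, and rose by 3.11 ± 0.12 on the log2 scale (adjusted p = 3.54e-25). Atp2b4, a calcium pump of the plasma membrane, and Nhs rose by 2.93 and 2.89. Lbp, the lipopolysaccharide-binding acute phase protein, had 25.8 and 18.6 CPM in sgPcyt2 cells, against 2.55 and 3.67 CPM in cDNA cells, and rose by 2.83 ± 0.17 on the log2 scale (adjusted p = 7.78e-17). Ihh, Rbp4 and Trf, a hedgehog ligand and the plasma carriers of retinol and iron, were chosen after their values were seen and rose by 1.64, 1.37 and 1.47.

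Among called genes averaging at least 5 CPM, the lowest after Pcyt2 were Aif1l, an actin-binding protein, and S100a7a, a calcium-binding protein of squamous epithelia. Aif1l had 2.47 and 2.68 CPM in sgPcyt2 cells, against 15.2 and 14.1 CPM in cDNA cells, and fell by 2.51 ± 0.17 on the log2 scale (adjusted p = 6.63e-17). S100a7a had 11.1 and 17.4 CPM in sgPcyt2 cells, against 81.1 and 75.9 CPM in cDNA cells, and fell by 2.46 ± 0.11 on the log2 scale (adjusted p = 1.49e-12). Htra1, a secreted serine protease, had 49.6 and 59.1 CPM in sgPcyt2 cells, against 169 and 175 CPM in cDNA cells, and fell by 1.66 ± 0.058 on the log2 scale (adjusted p = 2.70e-26). For these 3 each cDNA library was more than 2 times each sgPcyt2 library, which their choice as extremes favours. Thsd7a, a membrane protein, had 11.6 and 15.8 CPM in sgPcyt2 cells, against 47.3 and 46.1 CPM in cDNA cells, and fell by 1.77 ± 0.10 on the log2 scale (adjusted p = 1.55e-19). Ms4a10 had 9.67 and 8.76 CPM in sgPcyt2 cells, against 34.3 and 34.9 CPM in cDNA cells, and fell by 1.91 ± 0.11 on the log2 scale (adjusted p = 1.10e-18); in KPsh cells it was higher off doxycycline (log2 change 9.20). Serpinb9b, Prl2c2, Myh14 and Cryab fell by 2.11, 1.83, 1.80 and 1.68; Serpinb9b and Prl2c2 have close paralogs that can share reads. Among abundant genes, Sprr1a, a precursor of the cornified envelope, had 1043 and 1022 CPM in sgPcyt2 cells, against 2504 and 2576 CPM in cDNA cells, and fell by 1.30 ± 0.039 on the log2 scale (adjusted p = 1.71e-29). Il5ra, a cytokine receptor chain, had 191 and 229 CPM in sgPcyt2 cells, against 467 and 439.9 CPM in cDNA cells, and fell by 1.11 ± 0.065 on the log2 scale (adjusted p = 6.48e-09). Sorbs2, an adaptor of the actin skeleton, had 192 and 217 CPM in sgPcyt2 cells, against 445 and 431 CPM in cDNA cells, and fell by 1.10 ± 0.044 on the log2 scale (adjusted p = 2.94e-24).

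**Figure D3:**
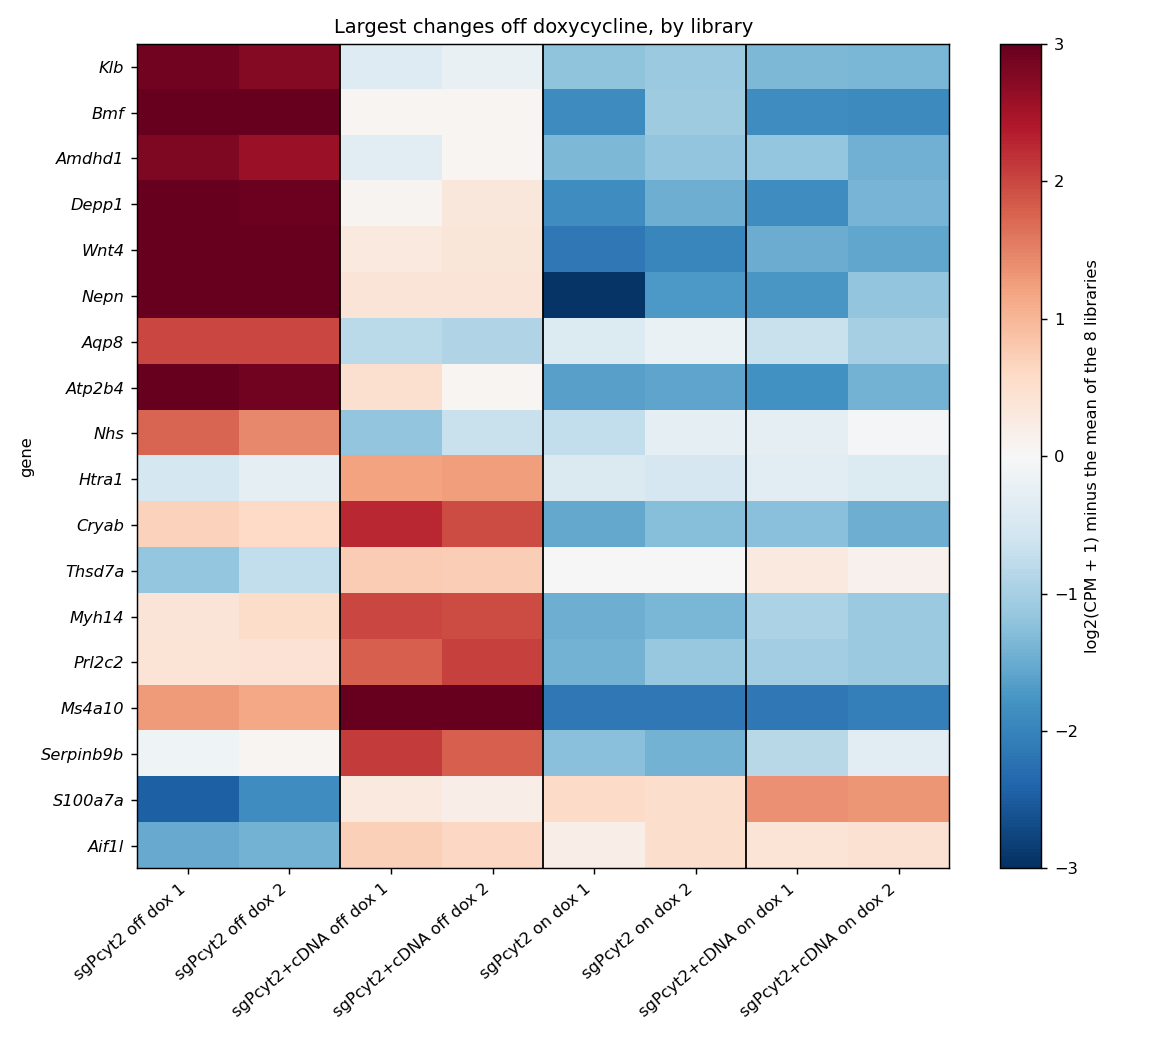
Log2(CPM + 1) minus the mean of the 8 libraries for 9 of the 10 highest and, after Pcyt2, the 9 lowest changes off doxycycline among called genes averaging at least 5 CPM over the 4 off-doxycycline libraries, leaving out Gm and Rik symbols (rows), with sgPcyt2 cells left of sgPcyt2+cDNA cells, off and then on doxycycline (columns). The 9 genes at the top are highest in the 2 sgPcyt2 libraries off doxycycline, such as Klb with 19.5 and 17.4 CPM there.

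Whether these changes were the same on the drug, where p53 is silenced, was asked by setting the on-doxycycline comparison beside them. On doxycycline 2746 genes (18.4%) were called, 1253 higher (8.4%) and 1493 lower (10%). The 2 comparisons share no library. They shared 1476 called genes, which is 29.9% of those called off doxycycline and 53.8% of those called on it. Of these 701 had the same sign and 775 the opposite sign, and across all 14916 genes, which are not independent replicates, the rank correlation of the log2 changes was 0.0064. By DESeq2 the number called on doxycycline was 1572 and the number shared was 817; without cDNA on-doxycycline library 2 the number called was 1680, 771 of them higher and 909 lower, and without library 1 the number lower was 992. The test of the difference called 3759 genes (25.2%), 1909 with a higher (12.8%) and 1850 with a lower (12.4%) effect off doxycycline. Of the 418 genes at least 2-fold higher off doxycycline, 40 were higher and 62 lower on it, and the difference was called for 222. Of the 242 at least 2-fold lower, 19 were higher and 33 lower on doxycycline, and the difference was called for 122. These genes were picked on their off-doxycycline effect, which is part of the difference, so the choice itself favours called differences of that sign. The sign was that of the off-doxycycline effect for 219 of the 222 and 120 of the 122.

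Among genes of at least 5 CPM over the 8 libraries, the largest such differences on the higher side included Wnt4. Wnt4 had 0.0632 and 0.204 CPM in sgPcyt2 cells and 0.662 and 0.59 CPM in cDNA cells on doxycycline, and its effects differed by 5.32 ± 0.67 (adjusted p = 1.64e-08). For Ugt2b36, a glucuronosyltransferase, the off-doxycycline values were 18 and 16 CPM in sgPcyt2 cells and 4.64 and 4.29 CPM in cDNA cells, and the difference between effects was 4.12 (adjusted p = 2.86e-08). The difference was 4.10 for Hal (adjusted p = 1.31e-08) and 3.55 for Abcc2 (adjusted p = 1.34e-09). These genes were near or under 2 CPM in all on-doxycycline libraries, so the on-doxycycline part of the difference rests on few counts. On the other side stood Mcpt8, with 3.67 and 4.38 CPM in sgPcyt2 cells, against 11.8 and 13.5 CPM in cDNA cells off doxycycline. On doxycycline it had 12.8 and 16.7 CPM in sgPcyt2 cells, against 5.73 and 5.43 CPM in cDNA cells. The difference between its effects was -3.06 (adjusted p = 1.29e-15). Lgr6, an R-spondin receptor, had 9.07 and 10.3 CPM in sgPcyt2 cells, against 19.7 and 21.4 CPM in cDNA cells off doxycycline and 6.89 and 7.07 CPM in sgPcyt2 cells against 2.06 and 2.36 CPM in cDNA cells on it, a difference of -2.73 (adjusted p = 1.06e-13). Both genes thus had opposite orders of the groups. Gzme and Anks1b also had lower effects off doxycycline, with differences of -2.22 and -2.11.

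**Figure D4:**
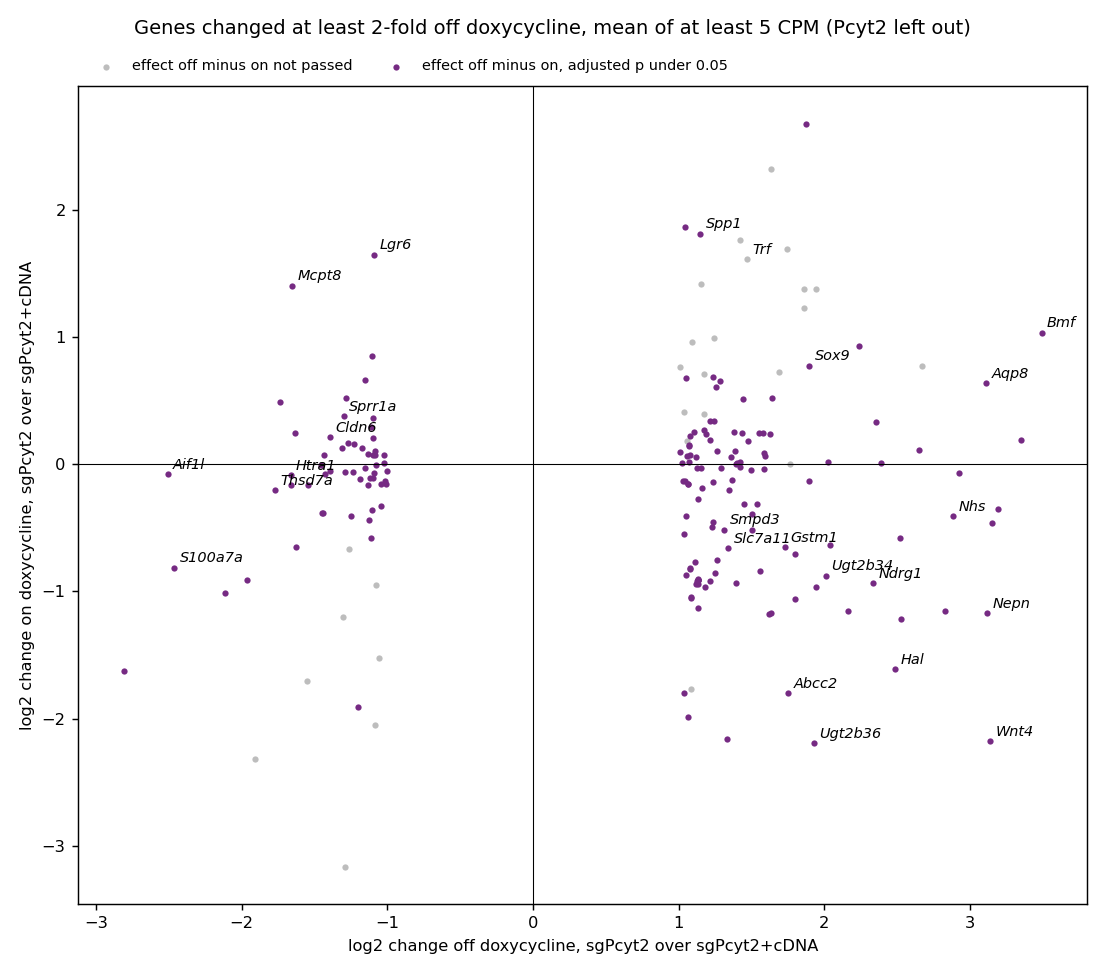
Log2 change off doxycycline (horizontal) against log2 change on doxycycline (vertical), both sgPcyt2 over sgPcyt2+cDNA, for genes changed at least 2-fold off doxycycline with a mean of at least 5 CPM over the 8 libraries; purple points have a called difference between the effects. Of the 138 higher genes 44 were called lower and 22 higher on doxycycline, and Wnt4 is at the lower right. The genes were picked on the off-doxycycline effect, which is part of the difference.

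The last comparison used other libraries of the series, KPsh cells kept off or on doxycycline for 10 days (n = 3 each). It reads the direction in which each gene moves in unedited KPsh cells when the drug is withdrawn and p53 returns, which cannot be told apart. There 9063 of 13990 genes (64.8%) were called, 4624 higher (33.1%) and 4439 lower (31.7%) off doxycycline. Of the 1279 tested genes that were at least 2-fold higher off doxycycline in KPsh cells, 479 (37.5%) were lower and 171 (13.4%) higher in sgPcyt2 than in cDNA cells, with a median log2 change of -0.16. Of the 565 genes at least 2-fold lower off doxycycline in KPsh cells, 216 (38.2%) were higher and 35 (6.19%) lower in sgPcyt2 cells, with a median of 0.27. Over all genes the shares were 16.3% higher and 16.8% lower. On doxycycline the counts ran the other way: of the 1279 genes 321 were higher and 90 lower in sgPcyt2 than in cDNA cells, with a median of 0.13, and of the 565 genes 17 were higher and 136 lower, with a median of -0.13. By DESeq2 103 in place of 171 were higher, and without sgPcyt2 library 1 22 in place of 35 were lower. Sprr1a, Ms4a10 and Aif1l were among the genes higher in KPsh cells off doxycycline (log2 change 4.68, 9.20 and 2.28) that were lower here. Onecut2, Slc7a11 and Nhs were lower in KPsh cells off doxycycline (log2 change -1.94, -1.80 and -3.87) and higher here. Mx1 and Muc5ac went against this, being higher in both (6.95 and 4.37 in KPsh cells). G2/M genes, counted without the 2-fold threshold, did not follow it either. Of 54, 51 were called lower off doxycycline in KPsh cells (median log2 change -0.65) and 50 in sgPcyt2 cells. Ccnb1, Top2a and Mki67 were lower off doxycycline in KPsh cells (log2 change -0.87, -0.82 and -1.27) and lower again in sgPcyt2 cells. Trp53 RNA itself was lower in sgPcyt2 than in cDNA cells, as given above, and its part in these counts was not tested. The KPsh direction was not that of the cDNA cells at 6 days for every gene. Off and on doxycycline, cDNA cells averaged 138 and 83.4 CPM for Slc7a11 and 171 and 119 CPM for Onecut2, the opposite order. They averaged 14.7 and 12.3 CPM for Aif1l and 34.6 and 0.0295 CPM for Ms4a10, the same order. The off and on libraries of cDNA cells were not tested against each other.

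**Figure D5:**
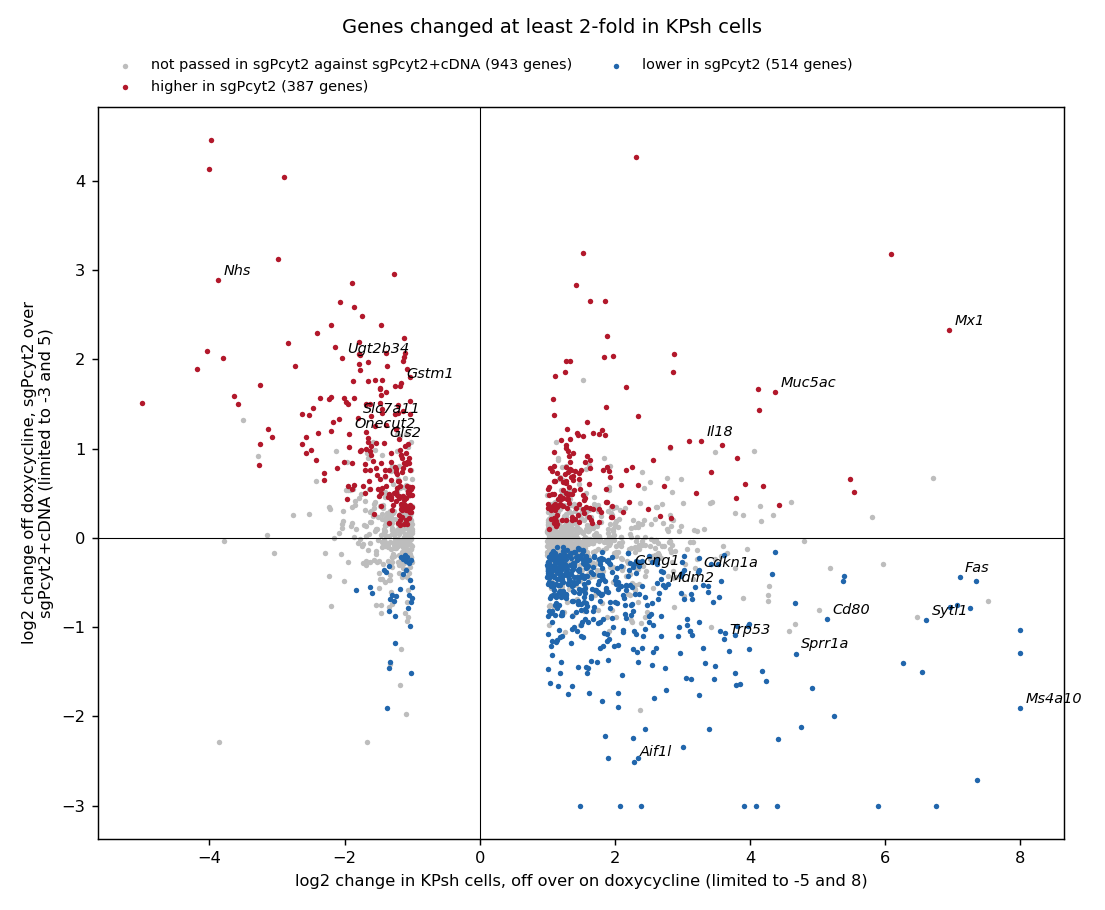
Log2 change in KPsh cells off over on doxycycline for 10 days (horizontal) against log2 change off doxycycline, sgPcyt2 over sgPcyt2+cDNA (vertical), for the genes changed at least 2-fold in KPsh cells. Among the 1279 genes at the right 479 were lower in sgPcyt2 cells, and among the 565 at the left 216 were higher.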

How the data were processed

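Libraries were made with a stranded mRNA kit, per the labels' protocols. Reads were aligned by the authors with STAR 2.6.1c to mm10 and counted with HOMER, per the submitters' processing notes. The deposited values are expected counts per gene, as the authors' counting gave them, in steps of 0.5, and per the file headers reads on both strands were counted, so overlapping and antisense genes cannot be told apart. The columns of the 4 cDNA libraries were matched to their samples by elimination; 0 value columns were unmatched. Counts were rounded to whole numbers, with ties up, filtered with filterByExpr, scaled by TMM and fitted with edgeR 4.0.16 (limma 3.58.1, R 4.3.3) in a robust quasi-likelihood model of 4 groups over 8 libraries (residual df 4, biological coefficient of variation 0.0333). Contrasts were sgPcyt2 minus cDNA off doxycycline, the same on it, and their difference, with Benjamini-Hochberg adjustment over all 14916 genes. KPsh libraries were fitted separately. The model was tested on simulated data.

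Members, lists and tests were chosen with earlier results of these data known. Named genes are Trp53, Cdkn1a, Mdm2, Ccng1, all ethanolamine and choline genes, up to 4 called genes per other list with the largest change at 5 CPM or more and no overlap (the 2 most abundant where none passed), the 10 highest and 10 lowest changes, the 6 highest and 6 lowest off-minus-on differences, and the 8 most abundant with at least a 2-fold change. A few genes that this rule names are not reported here. Gene families and genes said so in the text were chosen after values were seen, as were the genes named because a call was lost. Alternatives were other scaling, filters, unrounded counts, DESeq2 1.42.0, a fit without robust estimation, a replicate block, the 4 off-doxycycline libraries alone and each library left out.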

Additional observations from a re-analysis of the deposited data

Results flagged for a closer look

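For the genes below the sgPcyt2 minus cDNA effect differed between off and on doxycycline by edgeR's quasi-likelihood test of the difference (adjusted p under 0.05). Each value is the log2 effect off doxycycline minus that on it, and no explanation was weighed. The on-doxycycline part of the difference rests on few counts for genes with low values there.

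The effect was higher off doxycycline for Wnt4 (5.32), Nepn (4.29), Nr1i2 (4.23), Ugt2b36 (4.12), Hal (4.1), Lbp (3.99), Abcc2 (3.55), Depp1 (3.54), Nhs (3.3), Ndrg1 (3.27), Amdhd1 (3.16) and Atp2b4 (2.99). A higher off-doxycycline effect was also found for Ugt2b34 (2.89), Ihh (2.81), Cyp2c65 (2.8), Aqp8 (2.48), Bmf (2.46), Gstm1 (2.38), Elf3 (2.14), Vldlr (2.02), Slc7a11 (2), Nupr1 (1.88), Smpd3 (1.83) and Hhex (1.5). Higher off-doxycycline effects of smaller size were found for Rbp4 (1.49), Lrp1 (1.43), Chpt1 (1.4), Onecut2 (1.35), Dgat2 (1.33), Scd1 (1.23), Gls2 (1.22), Stc2 (1.2), Acsl3 (1.16), Acsl1 (1.15), Dnajc10 (1.13) and Sox9 (1.12). It was likewise higher off doxycycline for Cd274 (1.07), Pnpla7 (1.07), Fads2 (1.05), Insig1 (1.03), Tapbp (1.02), Spry1 (0.98), Idh1 (0.94), Cyp3a13 (0.91), P4ha2 (0.9), Vegfa (0.89), Faah (0.89) and Plpp3 (0.86). The effect was higher off doxycycline for Dhodh (0.78), Fdps (0.76), Egfl7 (0.73), Cdh1 (0.63), Sesn1 (0.62), Slc44a1 (0.61), Cdkn1b (0.57), Ctsc (0.55), Fth1 (0.53), Pik3c3 (0.51), Pdx1 (0.51) and Gaa (0.5). A higher off-doxycycline effect was also found for Dusp4 (0.49), Cfb (0.45), Krt20 (0.44), mt-Nd6 (0.35), Idh2 (0.34), Bax (0.27), Ptdss1 (0.24) and Etnk1 (0.22).

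The effect was lower off doxycycline for Mcpt8 (-3.06), Pcyt1b (-2.9), Lgr6 (-2.73), Aif1l (-2.43), Gzme (-2.22), Anks1b (-2.11), Egr1 (-2.09), Dusp1 (-1.89), Sprr1a (-1.68), S100a7a (-1.65), Cdh5 (-1.63) and Cldn6 (-1.61). A lower off-doxycycline effect was also found for Htra1 (-1.58), Thsd7a (-1.57), Cald1 (-1.55), Loxl2 (-1.46), Il5ra (-1.41), Ptgs2 (-1.3), Sorbs2 (-1.3), Ctsl (-1.28), Trp53 (-1.21), Serpinb9b (-1.1), Ndc80 (-1.1) and Sparc (-1.06). Lower off-doxycycline effects of smaller size were found for Pdgfra (-1.05), Zeb2 (-1.02), Ccnb1 (-0.97), Cdkn1a (-0.94), Birc5 (-0.88), Sec24d (-0.87), Hmmr (-0.86), S100a4 (-0.85), Wipi1 (-0.81), Cldn2 (-0.78), Csf1r (-0.74) and Mdm2 (-0.71). It was likewise lower off doxycycline for Cdk1 (-0.69), E2f2 (-0.69), Spp1 (-0.66), Ckap2 (-0.65), Top2a (-0.62), Cdc6 (-0.59), Wfs1 (-0.53), Hilpda (-0.53), Mki67 (-0.51), Tk1 (-0.5), Mboat1 (-0.4) and Cdc20 (-0.39). The effect was lower off doxycycline for Hnf4a (-0.38), Cept1 (-0.36), Slc44a2 (-0.36), Cav1 (-0.34), Pcyt2 (-0.3), Pgk1 (-0.25) and Far1 (-0.2).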

How the results depend on the processing

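DESeq2 called fewer genes: 3116 off doxycycline (1473 higher, 1643 lower, 3102 of them also called by edgeR), 1572 on it (785 higher, 787 lower) and 2426 for the difference (1130 with a higher effect off doxycycline). The rule of at least a 2-fold change left 660 off doxycycline. Leaving out 1 library at a time gave 3391 to 4599 genes off doxycycline, 1680 to 2141 on it (771 to 1039 higher, 909 to 1165 lower), 2978 to 3859 for the difference and 8484 to 9038 in KPsh cells; where 1 library is left in a group, it is assumed to vary like the others. With only the 4 off-doxycycline libraries 4957 were called. The replicate numbers did not pair the samples (correlations of deviations between groups -0.0696 to 0.0109), and with the replicate block 4731 genes were called off doxycycline, 2547 on it and 3565 for the difference. Under the block Rrm2 (log2 change -0.60, adjusted p = 0.0617) and Slc44a4 (0.80, adjusted p = 0.0597) were not called. Over the named genes and all alternatives 2399 values kept their direction and side of the threshold, 75 kept the direction and lost the call, 3 gained it and 0 reversed. The cause of these shifts was not tested. With 2 libraries a group, genes of a few counts carry the widest errors.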
